A study of Mus musculus with 4 samples.

Results

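Of the 102 protein-coding mouse genes that carry the names of 10 families of chromatin modifiers and remodellers, 1 had a peak in the KO PHF2 list and 25 had a peak in the Ctrl PHF2 list. The members were chosen by symbol from the RefSeq annotation of 21887 protein-coding genes (Kdm, Phf, Kmt, Setd, Nsd, Ehmt, Arid, Smarc, Chd or Cbx followed by a digit, or Smarc followed by a letter). The rule itself uses no measured value, but it was set with earlier results of these data known. A gene counted as having a peak when a called peak lay inside it or within 1 kb of either end. The peaks come from CUT&RUN, which frees the chromatin that an antibody has bound by means of a tethered nuclease and sequences it, on gastrocnemius (calf) muscle of male C57BL/6 mice aged 4 weeks. KO mice were Phf2 flox/flox;Acta1 Cre+ and Ctrl mice were Phf2 flox/flox;Acta1 Cre-, so floxed Phf2 alleles are common to both genotypes. Acta1 is a skeletal muscle actin gene and its Cre acts in muscle fibres, so other cells of the muscle keep Phf2. Each genotype was profiled with an antibody to PHF2 and with IgG, which has no set target and shows the background, in 1 library each (KO PHF2, Ctrl PHF2, KO IgG and Ctrl IgG). With 1 library per group no test across samples was possible, and every difference given here is between libraries.

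PHF2 is a chromatin protein that binds methylated lysine 4 of histone H3 through its PHD finger and carries a JmjC domain of the demethylase type. The genes described here belong to families with several roles in chromatin, and a shared symbol does not give every gene its family's role. Kmt, Setd, Nsd and Ehmt include enzymes that write methyl groups on histones, at various residues, and Kdm includes enzymes that remove them. Phf and Cbx include proteins that read them. Smarc, Arid and Chd include parts of ATP-driven complexes that move or evict nucleosomes. In skeletal muscle such proteins are known for opening and closing the genes of differentiation and fibre identity.

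The authors' lists held 161 peaks for KO PHF2, 1621 for Ctrl PHF2, 152 for KO IgG and 77 for Ctrl IgG. Read totals are unknown, so lower depth and less bound PHF2 cannot be told apart as sources of the shorter KO PHF2 list. The number of tags (sequenced fragments) at each PHF2 summit was recovered as whole numbers from the deposited values, and had a median of 15 in both PHF2 lists, so a single summit count carries a wide counting interval. All intervals are 95% intervals and cover counting error only. Of 10 markers of muscle fibres, 2 (Ttn and Des) had a Ctrl PHF2 peak, as did 2 of 5 endothelial markers (Cdh5 and Flt1), and 0 of 4 markers each of satellite cells, fibro-adipogenic cells, immune cells and smooth muscle with pericytes, where 6.88% of all protein-coding genes had one. Peaks do not measure expression, so these counts do not check the tissue or the share of other cells.

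The windows around annotated transcription starts show the kind of DNA at some of these peaks. Each sequence below is a RefSeq window of GRCm38.p6, the assembly behind mm10, running from 250 bases before to 50 after a start site, 5′ to 3′ on the gene's strand. Capitals mark every CCAAT box and every GC box (GGGCGG) on either strand, with overlapping GC boxes run together. The first 4 are windows of the 3 genes whose peaks had the highest fold enrichments (the authors' ratio of tags to local background), and each lay within a Ctrl PHF2 peak. The Arid4b window, also under a Ctrl PHF2 peak, is shown as the one poorest in CpG among the covered windows, and that of Phf2 as a window under no peak.
Arid1a, upstream start, chr4:133756720-133757019, minus strand: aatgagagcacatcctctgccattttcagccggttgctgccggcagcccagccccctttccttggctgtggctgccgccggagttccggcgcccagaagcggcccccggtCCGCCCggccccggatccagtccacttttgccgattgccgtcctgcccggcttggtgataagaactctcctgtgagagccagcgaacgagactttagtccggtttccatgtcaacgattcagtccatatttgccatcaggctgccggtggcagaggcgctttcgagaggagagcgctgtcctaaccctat
Arid1a, internal start, chr4:133753936-133754235, minus strand: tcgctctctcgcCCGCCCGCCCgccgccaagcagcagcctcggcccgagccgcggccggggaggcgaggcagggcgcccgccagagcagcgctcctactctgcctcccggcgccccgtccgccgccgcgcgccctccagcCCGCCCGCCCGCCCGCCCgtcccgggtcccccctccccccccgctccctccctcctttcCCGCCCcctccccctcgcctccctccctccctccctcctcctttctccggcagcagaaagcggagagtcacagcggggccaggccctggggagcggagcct
Arid1b, chr17:4994824-4995123, plus strand: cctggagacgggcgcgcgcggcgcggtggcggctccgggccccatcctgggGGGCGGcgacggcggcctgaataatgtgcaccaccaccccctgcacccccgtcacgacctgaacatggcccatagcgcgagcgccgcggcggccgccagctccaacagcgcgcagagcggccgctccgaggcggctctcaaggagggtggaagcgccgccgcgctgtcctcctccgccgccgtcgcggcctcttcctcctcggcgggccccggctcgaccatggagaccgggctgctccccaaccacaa
Kmt2c, chr5:25498734-25499033, minus strand: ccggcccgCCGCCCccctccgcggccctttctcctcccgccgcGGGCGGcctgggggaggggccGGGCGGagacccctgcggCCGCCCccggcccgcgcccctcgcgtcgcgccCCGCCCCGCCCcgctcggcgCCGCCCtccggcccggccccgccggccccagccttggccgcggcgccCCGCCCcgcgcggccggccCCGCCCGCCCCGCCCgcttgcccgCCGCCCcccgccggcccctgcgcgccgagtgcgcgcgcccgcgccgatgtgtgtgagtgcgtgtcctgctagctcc
Arid4b, chr13:14063534-14063833, plus strand: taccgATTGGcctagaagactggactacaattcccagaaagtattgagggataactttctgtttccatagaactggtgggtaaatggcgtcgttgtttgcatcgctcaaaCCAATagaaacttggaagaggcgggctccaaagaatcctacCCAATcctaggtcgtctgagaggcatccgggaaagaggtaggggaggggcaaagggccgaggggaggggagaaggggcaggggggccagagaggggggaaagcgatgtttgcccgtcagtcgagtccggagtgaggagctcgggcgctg
Phf2, chr13:48870836-48871135, minus strand: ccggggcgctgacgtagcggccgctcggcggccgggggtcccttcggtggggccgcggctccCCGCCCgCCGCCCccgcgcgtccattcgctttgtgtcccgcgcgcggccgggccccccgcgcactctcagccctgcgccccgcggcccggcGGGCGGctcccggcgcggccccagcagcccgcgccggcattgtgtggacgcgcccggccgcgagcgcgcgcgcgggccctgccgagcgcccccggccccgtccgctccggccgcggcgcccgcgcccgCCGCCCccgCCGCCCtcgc
These windows differ widely in composition. The Kmt2c window had 56 CpG dinucleotides and 12 GC boxes, that of Arid1b had 42 CpG and 1 GC box, and the Arid1a windows had 36 CpG at the internal start and 22 at the upstream start. The Arid4b window had 14 CpG, 3 CCAAT boxes and no GC box. The Phf2 window, with 63 CpG and 5 GC boxes and no CCAAT box, was under no peak of either PHF2 list.

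Over all families, members had Ctrl PHF2 peaks more often than protein-coding genes as a whole. The KO PHF2 list had a peak at 1 of 102 members (0.980%, Wilson interval 0.173 to 5.35), against 0.699% of all protein-coding genes. The Ctrl PHF2 list had one at 25 of 102 members (24.5%, 17.2 to 33.7), against 6.88% of all protein-coding genes. Within 1 kb of a gene end there were 0 members in the KO list, against 0.484% of all genes, and 21 members (20.6%, 13.9 to 29.4) in the Ctrl list, against 5.6% of all genes. A KO peak count of 0 in 102 allows a share of up to 2.94%. IgG peaks lay at an end of 0 members in either genotype, against 0.0137% of all genes in KO and 0.00457% in Ctrl. The KO PHF2 share is near its background and gives no result on these genes. The Ctrl count depends on how strong a peak had to be, with 15 members left at a -log10 q of at least 5 and 5 when the Ctrl list was cut by fold enrichment to the 161 peaks that KO had. The shares of all protein-coding genes under these cuts were not computed, so neither count can be set against 6.88%.

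Members were long genes, with a median length of 48.9 kb against 17.2 kb for all protein-coding genes, and long genes held Ctrl PHF2 peaks more often. Among members at or above that median length 17 of 51 (33.3%, Wilson interval 22.0 to 47.0) had a Ctrl PHF2 peak, against 14.3% of all genes of that length. Among shorter members 8 of 51 did (15.7%, 8.17 to 28), against 4.65% of all shorter genes. At gene ends alone the long members had 15 of 51 against 11.1%, and the shorter members 6 of 51 against 3.94%. Expression of these genes was not measured here, and its part in the counts was not tested.

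**Figure D1:**
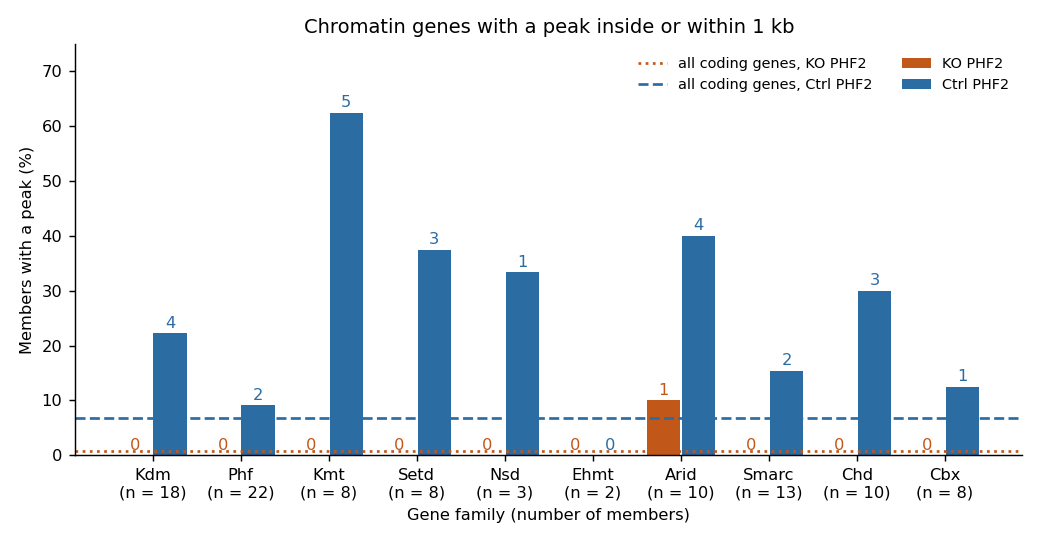
Share of members (%) with a peak inside the gene or within 1 kb, by family, in the KO PHF2 (orange) and Ctrl PHF2 (blue) libraries, with the number of genes above each bar and the shares of all protein-coding genes as lines. Kmt genes stood highest in Ctrl with 5 of 8, though at a -log10 q of at least 5 only 2 of 8 were left, and 1 Arid gene is the only member with a KO PHF2 peak.

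The count of members with a Ctrl PHF2 peak varied by family, against 6.88% of all protein-coding genes. In the families that include histone methyltransferases, 5 of 8 Kmt genes, 3 of 8 Setd genes and 1 of 3 Nsd genes had one, while neither Ehmt gene did. In those that include remodeller subunits, 4 of 10 Arid genes, 3 of 10 Chd genes and 2 of 13 Smarc genes had one. Of the demethylase genes 4 of 18 Kdm had one. In the other 2 families, 2 of 22 Phf genes (9.09%) and 1 of 8 Cbx genes (12.5%) had one, shares near that of all genes. The order of the families rests on weak peaks: at a -log10 q of at least 5, Kmt had 2 of 8, below Chd with 3 of 10 and Nsd with 1 of 3, and with the Ctrl list cut to 161 peaks Kmt had 1 of 8 and Arid 2 of 10. The share of all genes at these cuts was not computed. Families are small, and their Wilson intervals are wide: 30.6 to 86.3% for Kmt, 9.001 to 45.2% for Kdm and 2.53 to 27.8% for Phf. Differences between families were not tested.

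Phf2 itself (Gene ID 18676, mm10 chromosome 13, 48801750 to 48870885) had 0 peaks in the KO PHF2, Ctrl PHF2 and Ctrl IgG lists. The KO IgG list had 1 peak in the gene, from 48822891 to 48824114, with an authors' fold enrichment of 8.59, 47.7 kb downstream of the annotated start. It ranked 47 of 152 in its list by fold enrichment. This was the only IgG peak at any of the 102 members (1 in KO, 0 in Ctrl), where KO IgG peaks touched 0.123% of all genes and Ctrl IgG peaks 0.0548%. A peak list does not show whether the gene was deleted, so the genotype labels were not checked. The nearest relatives of PHF2 are KDM7A and PHF8. Kdm7a had a Ctrl PHF2 peak, described below, and Phf8 had none.

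The highest fold enrichments among member peaks were at Arid1b and Arid1a, which encode large ARID subunits of SWI/SNF remodellers. ARID1A and ARID1B are alternative subunits of the BAF form, and ARID2 belongs to the PBAF form. Arid1b had the strongest member peak, a Ctrl PHF2 peak of 3331 bp (chromosome 17, 4993942 to 4997272). Its summit held 40 tags (28.6 to 54.5, the exact Poisson interval used for tags throughout), at 13.5 in fold enrichment. It ranked 14 by fold enrichment, 5 by width and 2 by summit tags among the 1621 Ctrl PHF2 peaks. It reached from 1132 bp upstream to 2198 bp downstream of the annotated start site. A separate narrow peak of 292 bp deep inside Arid1b (5189968 to 5190259) had a fold enrichment of 5.05 and 14 tags. No KO PHF2 peak was called at Arid1b.

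Arid1a, on chromosome 4, was the member found in both genotypes. The KO PHF2 library had 1 peak there, of 422 bp (133752985 to 133753406), where the summit held 20 tags (12.2 to 30.9) and the fold enrichment was 4.39. Its -log10 q was 2.18, so a minimum of 5 would leave no member in the KO list. The Ctrl PHF2 library had 2 peaks, of 2837 bp (133751767 to 133754603) and 1517 bp (133756229 to 133757745). Their fold enrichments were 12.0 and 8.37, with 25 tags (16.2 to 36.9) and 17 tags (9.90 to 27.2). The KO peak lay inside the wider Ctrl peak, with the 2 summits 980 bp apart. The ratio of KO to Ctrl tags was 0.8 (exact conditional interval 0.421 to 1.5). It sets 2 different summits against each other without correction for depth. It therefore does not measure a change, or its absence, at a shared position.

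The fold enrichments at Arid1a were further apart than the tags. The caller's local background at the KO summit was 2 scaled tags, against 0.438 at the Ctrl summit, and the fold enrichment divides by it. By fold the KO peak ranked 159 of 161 in its list, at the list's lowest value, while 25 KO peaks had at least as many tags. The wider Ctrl peak covered the internal start site and the other covered the upstream start site. The KO summit lay 732 bp downstream of the internal start and no KO peak covered a start site of any member.

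**Figure D2:**
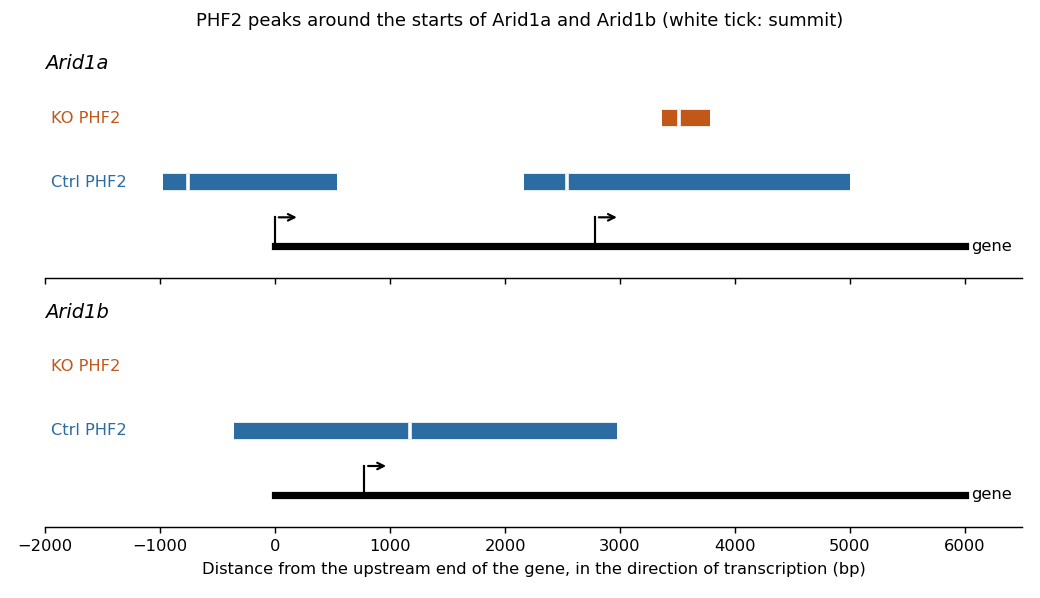
Peaks at the 5′ parts of Arid1a and Arid1b as distance (bp) from the upstream end of the gene, with KO PHF2 peaks (orange) above Ctrl PHF2 peaks (blue), summits as white ticks and annotated start sites as arrows; gene bodies go on to the right. The 422 bp KO peak at Arid1a lies within the 2837 bp Ctrl peak, and Arid1b has a Ctrl peak of 3331 bp and no KO peak.

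The remaining Arid genes had smaller peaks. At Arid2 a peak of 1172 bp (chromosome 15, 96286910 to 96288081) had 21 tags (13 to 32.1) and 4.88 in fold enrichment, over a local background of 2 scaled tags. It also lies within 1 kb of the coding gene Gm38469. Arid4b, whose product works in the SIN3 histone deacetylase complex, had a peak over its start (chromosome 13, 14063440 to 14064009), 6.57 in fold enrichment with 13 tags. That peak is shared with the neighbouring gene Ggps1. Arid3a, Arid3b, Arid3c, Arid4a, Arid5a and Arid5b had none in any list. ARID5B is a known partner of PHF2.

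Of the ATPases that drive remodelling, those of the BAF and ISWI types each had a gene with a peak. Smarca2, which encodes the BAF ATPase BRM, had 2 Ctrl PHF2 peaks on chromosome 19. The nearer to the start (26605381 to 26605789) had a fold enrichment of 7.33, and the other (26607092 to 26607424) had 5.25, with 16 tags at each summit. Smarca4, which encodes the alternative BAF ATPase BRG1, had none. Smarca5, the gene of the ISWI ATPase SNF2H, had a peak over its start on chromosome 8 (80739080 to 80739548), with 12 tags and 5.55 in fold enrichment. The other Smarc genes without a peak were Smarca1, Smarcad1, Smarcal1, Smarcb1, Smarcc1, Smarcc2, Smarcd1, Smarcd2, Smarcd3 and Smarce1, which include the core subunit genes of SWI/SNF.

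The CHD genes encode remodellers with chromodomains. Chd2 had 2 adjacent peaks on chromosome 7 (73540756 to 73541210 and 73541364 to 73541768), at the end of the gene with the higher coordinate. Their fold enrichments were 8.09 and 8.26, and each summit held 16 tags (9.15 to 26.0). Chd7, the gene of a remodeller known for its role in neural crest development, had a wide peak of 1720 bp at the lower-coordinate end on chromosome 4 (8690472 to 8692191), with 20 tags and 6.99 in fold enrichment. Chd9 had a peak inside the gene on chromosome 8 (90908726 to 90909301), 23179 bp upstream of the nearest start site in the RefSeq promoter table, at 6.34 in fold enrichment. Its deposited values gave 18 tags, with 14 as a less close solution. Chd1, Chd1l, Chd3, Chd4, Chd5, Chd6 and Chd8 had none.

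Among methyltransferase genes, Kmt2c stood out. KMT2C and KMT2D are the large enzymes that place monomethyl marks on H3 lysine 4 at enhancers. The Kmt2c peak (chromosome 5, 25497698 to 25499532) was 1835 bp wide, with 22 tags (13.8 to 33.3). At 11.2 its fold enrichment ranked 42 of 1621, and its width ranked 57. Kmt2d had a peak of 549 bp on chromosome 15 (98871734 to 98872282), 5.55 in fold enrichment. Its summit was 879 bp upstream of the annotated start site, inside the gene model. Kmt2e, whose product reads H3 lysine 4 methylation, had the same fold enrichment, 5.55, in a peak of 481 bp on the same chromosome as Kmt2c (23433176 to 23433656). At both genes the values gave 13 tags, with 15 as a less close solution. Kmt2a and Kmt2b, which encode the MLL1 and MLL2 enzymes, had no peak in any list.

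The enzymes of H4 lysine 20 came next. Kmt5b, for di- and trimethylation of that residue, had a peak over a start site on chromosome 19 (3767555 to 3768317), 8.84 in fold enrichment with 17 tags. Kmt5a, for its monomethylation, had a narrow peak of 299 bp by an internal start on chromosome 5 (124445504 to 124445802), where 11 tags (5.49 to 19.7) gave a fold enrichment of 5.78. Kmt5c had none.

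Of the SET domain genes, Setd1b, an H3 lysine 4 methyltransferase gene, had a peak of 1303 bp at its lower-coordinate end on chromosome 5 (123141156 to 123142458). It had 20 tags and 8.83 in fold enrichment and lay also within 1 kb of Rhof. Its paralogue Setd1a had none. Setd7, which encodes a methyltransferase of H3 lysine 4 and of other proteins, had a peak of 908 bp over its start on chromosome 3 (51560016 to 51560923), 7.60 in fold enrichment with 17 tags. Setd5 had one on chromosome 6 (113076606 to 113077127), 5.37 in fold enrichment with 15 tags, its summit 207 bp outside the gene. Nsd3, whose product methylates H3 lysine 36, had a peak at its lower-coordinate end on chromosome 8 (25601639 to 25602129), where 13 tags gave a fold enrichment of 6.94. No peak of any list lay at Setd2, Setd3, Setd4, Setd6, Nsd1, Nsd2, Ehmt1 or Ehmt2.

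**Figure D3:**
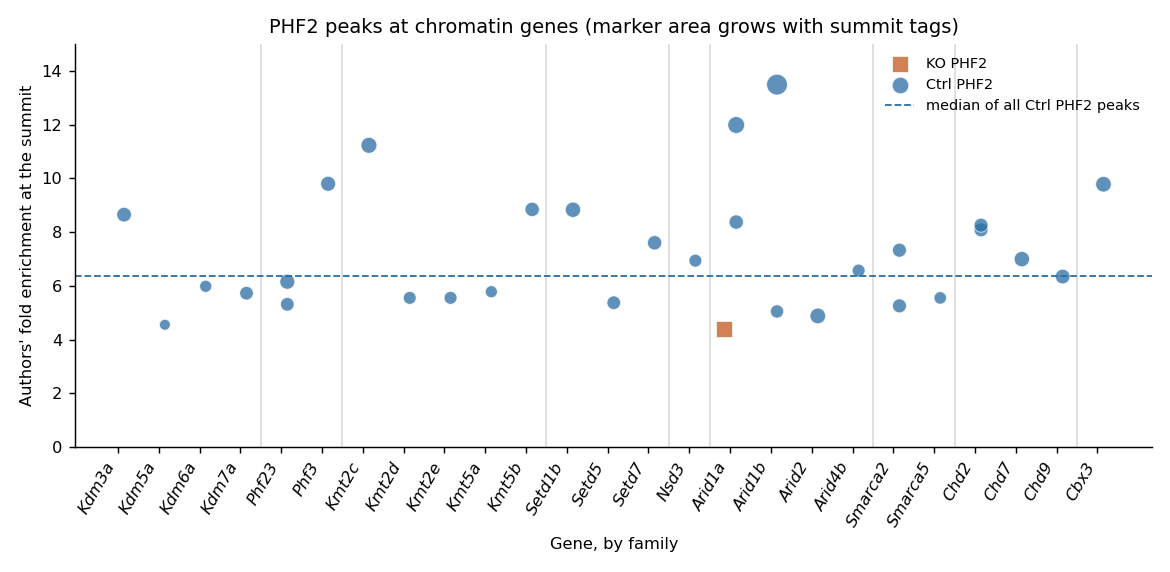
Authors' fold enrichment (y axis) of each PHF2 peak at the 25 genes that had one, by family, for KO PHF2 (squares) and Ctrl PHF2 (circles), with marker area growing with summit tags and the median of all Ctrl PHF2 peaks as a dashed line. Arid1b, Arid1a and Kmt2c stand highest in Ctrl, and the single KO peak at Arid1a is the lowest point.

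The demethylase genes with a peak act on different marks. Kdm3a, for H3 lysine 9, had the strongest, on chromosome 6 (71632592 to 71633299), covering 2 of its start sites, with 18 tags (10.7 to 28.4) and 8.65 in fold enrichment. Kdm6a, for H3 lysine 27, whose product is a subunit of the KMT2C and KMT2D complexes, had a peak of 333 bp on the X chromosome (18162699 to 18163031), 5.98 in fold enrichment with 11 tags. Kdm7a had a peak of 405 bp over its start on chromosome 6 (39206384 to 39206788), where 15 tags gave a fold enrichment of 5.73. Kdm5a, for H3 lysine 4, had the Ctrl PHF2 peak with the fewest tags and the lowest fold enrichment among members, also on chromosome 6 (120363779 to 120364115), 4.55 in fold enrichment with 8 tags (3.45 to 15.8), and shared it with the neighbouring gene Ccdc77. With 8 tags it lies below the lowest summit of the KO list, which had 10.

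The other 14 Kdm genes (Kdm1a, Kdm1b, Kdm2a, Kdm2b, Kdm3b, Kdm4a, Kdm4b, Kdm4c, Kdm4d, Kdm5b, Kdm5c, Kdm5d, Kdm6b and Kdm8) had no peak in any list. They include Kdm1a, the gene of the demethylase LSD1, and Kdm6b, the autosomal paralogue of Kdm6a.

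The Phf and Cbx families had few genes with a peak. Phf3, whose product binds the tail of RNA polymerase II, had a peak at its higher-coordinate end on chromosome 1 (30873306 to 30873904). With 19 tags (11.4 to 29.7), it was 9.80 in fold enrichment and ranked 96 of 1621. Phf23 had 2 small peaks on chromosome 11, of 329 bp (69995923 to 69996251) and 305 bp (69996915 to 69997219), with fold enrichments of 6.15 and 5.31 and 19 and 15 tags. The first is within 1 kb of the autophagy gene Gabarap. Cbx3, which encodes the heterochromatin protein HP1 gamma, counts through a peak on chromosome 6 (51468768 to 51469763) where 21 tags gave a fold enrichment of 9.78. That peak lies wholly outside Cbx3, with its summit 948 bp from the gene, and is also within 1 kb of the neighbouring gene Hnrnpa2b1.

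The Phf genes with no PHF2 peak were Phf1, Phf2, Phf5a, Phf6, Phf7, Phf8, Phf10, Phf11a, Phf11b, Phf11c, Phf11d, Phf12, Phf13, Phf14, Phf19, Phf20, Phf20l1, Phf21a, Phf21b and Phf24. The Polycomb genes Cbx2, Cbx6, Cbx7 and Cbx8 and the HP1 genes Cbx1 and Cbx5 had none either. Phf11a to Phf11d are related genes close to each other, and Cbx3, which had a peak, has several pseudogenes. Whether reads from such sequences were placed uniquely was not tested.

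The 30 Ctrl PHF2 peaks at members had medians close to those of the rest of the list. Their fold enrichments ran from 4.55 to 13.5 with a median of 6.75, against a median of 6.37 for the other 1591 peaks. Summit tags had a median of 16 at members and 15 elsewhere, and widths a median of 535.5 bp at members and 505 bp elsewhere. Peaks of at least 1000 bp made up 7 of 30 at members (23.3%, Wilson interval 11.8 to 40.9) and 257 of all 1621 (15.9%), a share within that interval. Peaks of at least 1500 bp made up 5 of 30 at members (16.7%, 7.34 to 33.6) and 106 of all 1621 (6.54%), a share below that interval. Both Arid1a peaks are among these 5. At 2000 bp members had 2 of 30 (6.67%, 1.85 to 21.3) against 2.71% of all, a share within that interval. At 2500 bp they had the same 2 of 30 against 1.36%, a share below it. Widths were not tested. None of the 30 overlapped an IgG peak. The same share over all 1621 Ctrl PHF2 peaks was not determined, so this cannot be read as particular to members.

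**Figure D4:**
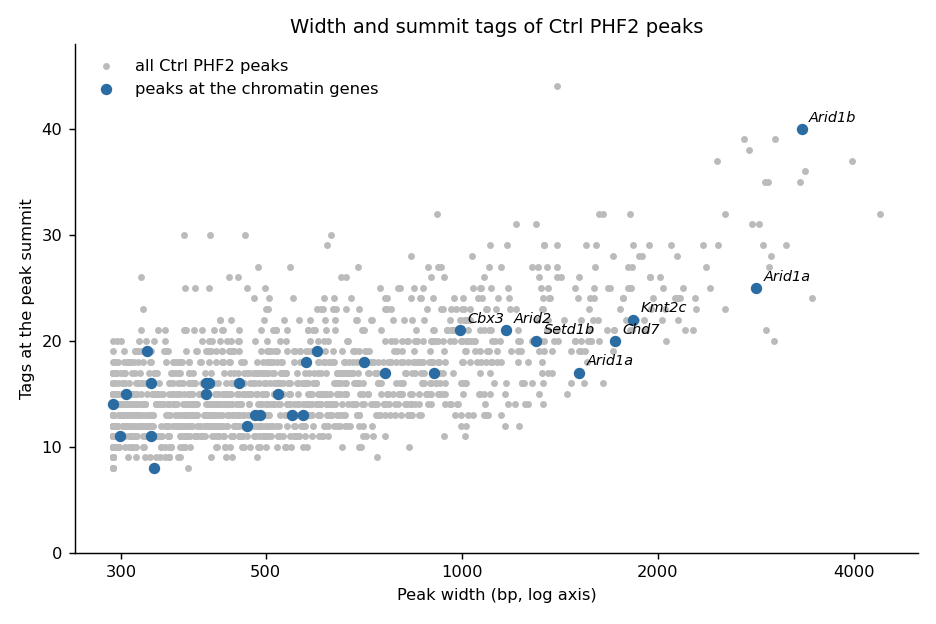
Tags at the summit against peak width (bp, log axis) for all 1621 Ctrl PHF2 peaks (grey) and the 30 at the chromatin genes (blue), with names for those of at least 1000 bp or 20 tags. Arid1b, with 3331 bp and 40 tags, and the 2837 bp peak of Arid1a lie at the wide end, and most of the others lie in the bulk of the list.

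Few member peaks had a KO counterpart, and a difference from the whole list was not detectable at these counts. Of the 30 Ctrl PHF2 peaks at members, 1 (3.33%, Wilson interval 0.591 to 16.7) overlapped a KO PHF2 peak, against 7.03% of all Ctrl PHF2 peaks. By gene, 1 of the 25 members with a Ctrl PHF2 peak (4%, 0.710 to 19.5) also had a KO PHF2 peak, against 8.17% of all genes with a Ctrl PHF2 peak, a combination found in 0.562% of all genes. In all, 24 of 102 members had a Ctrl PHF2 peak and no KO PHF2 peak, against 6.31% of all genes. The Wilson intervals of both ratios, 1 of 30 and 1 of 25, contain the share of the whole list. Among all Ctrl PHF2 peaks 21.1% of those with at least 20 tags and 3.22% of those with fewer had a KO counterpart, and at members these counts were 1 of 7 and 0 of 23. Arid1b, with 40 tags, was the strongest member peak without a KO counterpart. KO signal at these sites was not measured, so a missing call is not a measure of lost binding, and in bulk muscle fewer cells with bound PHF2 and less PHF2 per cell cannot be told apart.

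Where the strand was known, the peaks at a gene end were all at the start. Of the 30, 22 touched a gene end and 8 lay inside only. Of the 22, 13 were at the start of the gene, 0 at its finish and 9 at genes whose strand is not in the promoter table. The same split for the whole Ctrl PHF2 list was not determined, so it is not shown to be particular to members. The 13 include Setd5 and Cbx3, whose summits lay 27880 and 1410 bp upstream of the nearest start site in that table. Start sites in that table were found for 77 of the 102 members, and for 17 of the 25 with a Ctrl PHF2 peak. In these 17 genes 16 of 21 summits lay within 1 kb of a start site, and 13 of those 16 lay downstream of it. The median of the 16 was 133.5 bp downstream, against 232 bp for the 1063 Ctrl PHF2 peaks of the whole list within that distance, of which 827 lay downstream. Among those 16, the peaks at Arid1a and Kmt2d were the exceptions with an upstream summit.

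**Figure D5:**
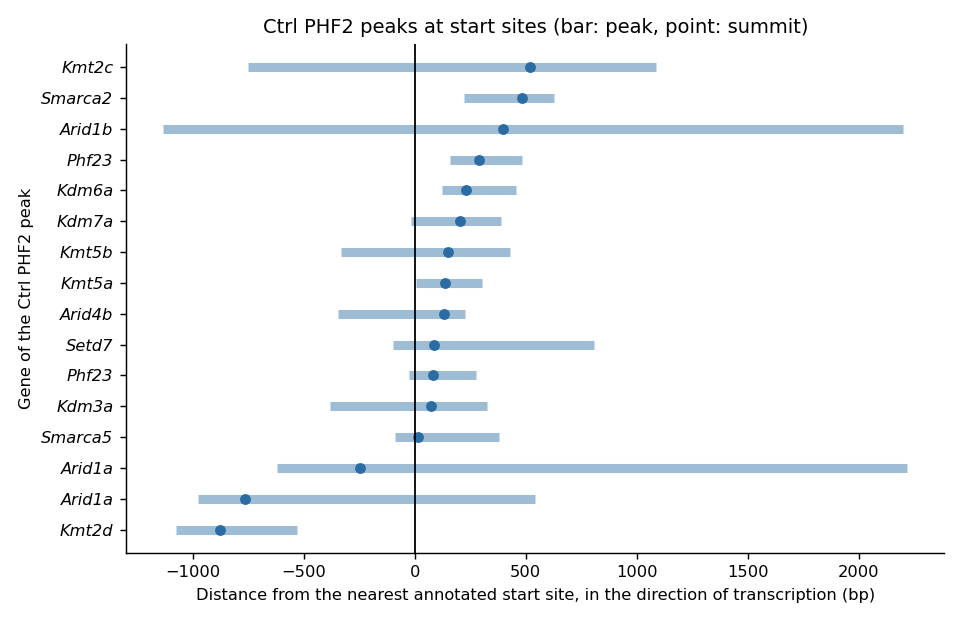
Extent (bars) and summit (points) of the 16 Ctrl PHF2 peaks with a summit within 1 kb of an annotated start site of a member, as distance (bp) in the direction of transcription. In 13 of 16 the summit is downstream of the start, while those of Arid1a (2 peaks) and Kmt2d are upstream.

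Promoter windows of members were covered by a KO PHF2 peak in 0 of 101 cases, against 0.165% of all windows. A Ctrl PHF2 peak covered 14 of the 101 (13.9%, Wilson interval 8.44 to 21.9), against 3.8% of all windows. A window counted as covered when a peak met at least 1 bp of it, so some, such as that of Kmt5a, were met only in part. The 14 covered windows had a median of 34 CpG, the 87 others of members 26, the 808 windows of any gene under a Ctrl PHF2 peak 29, and all 21263 windows 13. GC boxes (GGGCGG, either strand) were found in 12 of the 14 covered windows, 71.3% of the other member windows, 76.0% of the 808 and 46.2% of all windows. CCAAT was found in 4 of the 14, 35.6% of the others, 32.7% of the 808 and 38.2% of all windows. The AP-1 motif TGACTCA was in 1 of the 14, at Kdm3a, against 5.75% of the other member windows, 2.23% of the 808 and 4.66% of all windows. The E-box CACGTG, the cAMP response element TGACGTCA and the TATA box TATAAA were each in 0 of the 14. Among the 808 they were in 8.17%, 2.10% and 4.70%, and among all windows in 7.84%, 2.23% and 12.6%. These letters describe the windows and do not show which factor binds there. The 14 covered windows came from 11 genes, so they are not independent.

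Other chromatin genes, outside the named families, had peaks at a similar rate. Of 110 such genes, 2 had a KO PHF2 peak and 26 (23.6%) a Ctrl PHF2 peak, where all protein-coding genes had 0.699% in KO and 6.88% in Ctrl. They were spread over Polycomb genes (4 of 13), histone acetyltransferases (4 of 9), deacetylases (3 of 15), bromodomain genes (3 of 12), DNA methylation genes (3 of 11), further JmjC genes (2 of 6), further remodeller subunits (2 of 15) and other readers and corepressors (5 of 15). Further methyltransferase genes, such as Setdb1, Suv39h1 and Dot1l, had 0 of 14. The strongest were Jarid2, a Polycomb cofactor gene, with Ctrl PHF2 peaks of fold enrichment 11.1 and 10.2, the bromodomain gene Baz2b (8.94) and the JmjC gene Jmjd1c (7.89). They were followed by the acetyltransferase gene Kat2b (7.65), Ing1 (7.64), Hdac7, Mta2 and Tet2 (7.41 each) and Brd2 (7.05). Jarid2 was also the 1 gene of this list with a KO IgG peak.

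The genes of this second list that had a KO PHF2 peak were Kat2b and Baz2b. Kat2b had 19 tags in KO and 24 in Ctrl, with fold enrichments of 9.36 in KO and 7.65 in Ctrl. Baz2b had 13 tags in KO and 26 in Ctrl, with fold enrichments of 6.64 in KO and 8.94 in Ctrl. Its peak was 292 bp wide in KO and 1313 bp in Ctrl. The tags at both genes are not corrected for depth, so they do not measure a change in binding. At Kat2b the KO library had fewer tags and the higher fold enrichment, each fold being set against its own local background.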

How the data were processed

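Peak lists from 4 CUT&RUN libraries (KO PHF2, Ctrl PHF2, KO IgG and Ctrl IgG, grouped by sample title) were used. Bowtie2, MACS2 and mm10 were used per the submitters' processing notes; versions, settings, duplicate handling and control were not given in the sources used here. Each deposited list gives the authors' fold enrichment, which is a ratio to local background, with its -log10 p and -log10 q values. Tags at a summit were solved from the deposited fold, taken as (pileup + 1) / (background + 1), and the Poisson p. A single factor per list (0.609 in KO, 0.649 in Ctrl) gave whole tags within 0.005 for 100% of the 84 and 309 distinct pairs of values, of which 1 and 14 had a second solution; the closer was used. The steps were tested on simulated data.

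Genes and promoter windows came from RefSeq tables of GRCm38.p6, on the autosomes, X and Y. Starts are 1-based, and overlap meant at least 1 bp. Shares carry Wilson intervals and tags exact Poisson intervals. The upper limit of a share of 0 was set at 3 counts. Every member with a peak is named; not every member without one is reported by name. Members and gene lists were chosen with earlier results of these data known. Alternatives were a stricter q, a common p, other windows, summits alone, unshared peaks, an equal list length, merged peaks and a reciprocal overlap. Values were computed with pandas 2.3.3, NumPy 2.4.6 and SciPy 1.17.1 under Python 3.11.15, and drawn with matplotlib 3.10.9.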

Additional observations from a re-analysis of the deposited data

How the results depend on the processing

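Of 60 alternative values for the counts of members and shared peaks, 50 stayed within 1.5 times the reported count and 10 moved beyond it. Many of the 50 were counts of 0 or 1 with little room to move, so this total does not measure stability. The 50 also include the fall of members with a Ctrl peak at a gene end from 21 to 14, at a -log10 q of at least 5. With a -log10 q of at least 5, members with a KO PHF2 peak fell to 0, those with a Ctrl PHF2 peak to 15, those with a Ctrl peak and no KO peak to 15, those with both to 0 and shared Ctrl peaks to 0. The 10 genes lost from the Ctrl count were Arid2, Arid4b, Kdm5a, Kdm6a, Kdm7a, Kmt2d, Kmt2e, Kmt5a, Setd5 and Smarca5. With the Ctrl list cut by fold enrichment to its top 161 peaks, as many as KO had, 5 members kept a Ctrl peak (Arid1a, Arid1b, Kmt2c, Phf3 and Cbx3), 4 of them with no KO peak and 4 at a gene end. Without the margin of 1 kb, 12 members in place of 21 had a Ctrl peak over a gene end. A reciprocal overlap of at least 50% left 0 shared Ctrl peaks, since the KO peak at Arid1a is far narrower than its Ctrl peak. At a p-value as strict as that of the weakest peak in KO PHF2, 24 members kept a Ctrl peak, with Kdm5a lost. Counting peaks near no other coding gene left 20 members, without Arid2, Arid4b, Cbx3, Kdm5a and Setd1b. Counts per family, added after seeing the data, moved in 15 of 80 cases. Shares of all protein-coding genes under these alternatives were not computed. No paired analysis was possible because there was a single library in each group, and leaving out a library would have left a group empty. Peaks of few tags set the limit: Kdm5a rests on 8.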

Other observations

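Some member peaks lie beside non-coding genes. The peak counted for Setd5 is also within 1 kb of Gt(ROSA)26Sor, the locus used for mouse transgenes, and 27880 bp from the Setd5 start site in the promoter table. Both Chd2 peaks are within 1 kb of Chaserr, a non-coding RNA gene upstream of Chd2, and the nearest KO PHF2 peak was 16366 bp away. Peaks at Phf3, Kmt2c, Kmt2e, Setd7 and Smarca2 also lay within 1 kb of genes not annotated as protein-coding. A window of 5 kb added Phf5a and Smarcd1 to the members with a Ctrl PHF2 peak, which made 27. At Arid1a the second Ctrl peak, over the upstream start, was 2823 bp from the KO peak.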
